A study of Mus musculus with 18 samples.

Results

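The genes described here are 29 genes of sterol metabolism, chosen by symbol: 20 enzymes of the pathway that makes cholesterol, 5 regulators of that pathway, 2 genes of sterol uptake and transport and 2 sterol efflux pumps. *Ggps1*, on a side branch that does not lead to sterols, is counted among the 20 enzymes. Each symbol matched 1 Ensembl identifier of the 38924 in the count table, and all 29 were among the 16577 genes that had enough counts to be tested. The lowest count of any of these genes in any library was 31. RNA was measured in primary fibroblasts from the heart (HF), kidney (KF) and tail (TF) of 10-week-old male Rosa mT/mG mice on a C57BL/6 background, a line whose cells carry a red fluorescent protein (TdTomato). All cells were first grown for 10 days. In the transplanted groups (HFs, KFs and TFs), 400000 to 500000 cells on gelatin foam were grafted beneath the capsule of the kidney in syngeneic C57bl6/j mice aged 10 to 11 weeks, and CD45-;TdTomato+ cells were sorted from the kidney 3 days later. In the cultured controls (HFc, KFc and TFc), the remaining cells were replated at 50000 cells per well. Each of the 6 groups had 3 libraries. The transplanted cells had therefore been grafted, dissociated from the kidney and sorted, and these steps cannot be told apart from each other in a comparison with culture. The study calls the libraries of a condition biological replicates, and a separate tube of cells was prepared for each kidney transplant. Neither the labels nor the methods say whether the cells of the replicates came from separate donor mice, and p-values measure the spread between these libraries.

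Cells make cholesterol from acetyl-CoA. The first steps give mevalonate and then the isoprenoid farnesyl diphosphate, which also feeds the attachment of lipids to proteins. Farnesyl diphosphate is joined to squalene, squalene is closed to lanosterol, and lanosterol is trimmed to cholesterol. When sterols are scarce, SCAP carries the SREBP transcription factors out of the endoplasmic reticulum to be cleaved, and they switch on the genes of synthesis and uptake. When sterols are plentiful, the INSIG proteins hold SCAP back, and oxysterols activate the liver X receptors, which switch on the export pumps ABCA1 and ABCG1 and the ubiquitin ligase MYLIP, which removes the LDL receptor.

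Library totals ran from 17927838 to 32245168 counts. Levels are given as CPM, counts in each 1000000 after TMM scaling, a step that evens out differences in RNA composition between libraries. The 9 fibroblast markers summed to 15300 CPM or more in every library. KFs replicate 3 stood apart: its Y-linked genes summed to 0.722 CPM, against 175 to 230 CPM in the other 17 libraries. It also carried 1490 CPM of *Xist*, an RNA made by female cells, whereas no other library exceeded 0.404 CPM. Its RNA thus had the pattern of female cells, although all donors were labelled male. Where these cells came from was not tested. Its 6 epithelial markers summed to 137 CPM, against at most 31.9 CPM elsewhere. HFs replicate 2 held 1400 CPM of 12 proximal tubule markers, against 14.2 to 402 CPM in the others. Counts of genes that fell in each organ are given with and without KFs replicate 3, and in the heart also without HFs replicate 2. Counts that compare organs cover HFs replicate 2 only in the ranges with 1 library left out. Calls in transplanted against cultured cells that change without KFs replicate 3 are also given.

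Enzymes of cholesterol synthesis took a smaller share of the RNA in transplanted than in cultured cells of all 3 organs, and the difference was largest in the heart. The 20 enzymes together summed to 1058, 1085 and 1097 CPM in HFc and to 231, 238 and 187 CPM in HFs, a 4.94-fold lower mean. In the kidney the sums were 648, 652 and 626 CPM in KFc and 351, 504 and 253 CPM in KFs, a 1.74-fold lower mean, and 1.5-fold without KFs replicate 3. In the tail they were 822, 826 and 841 CPM in TFc and 404, 490 and 302 CPM in TFs, a 2.08-fold lower mean. No transplanted library reached the lowest cultured library of its own organ. In bulk RNA, a change in every cell and a change in the share of cells that express a gene cannot be told apart.

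**Figure D1:**
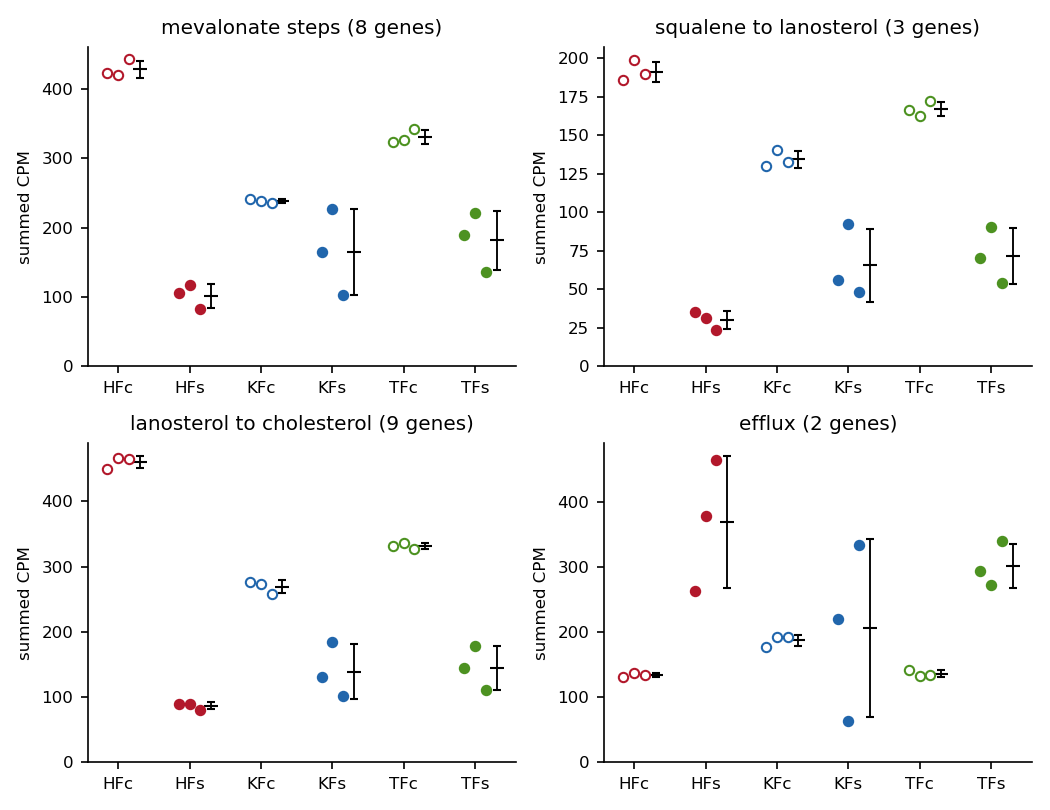
Summed CPM of the enzymes of 3 stretches of the pathway and of the 2 efflux pumps, in each library (open circles cultured, filled circles transplanted) with the mean ± SD of each group (n = 3). The synthesis sums lie lower in every transplanted library than in its cultured controls, whereas the efflux sums lie higher in HFs and TFs and spread from 63.6 to 335 CPM in KFs.

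Gene by gene, each gene was tested in edgeR with its quasi-likelihood method and Benjamini-Hochberg adjustment over all genes tested, and a gene is said to have risen or fallen at an adjusted p under 0.05. In HFs against HFc, 25 of the 29 genes fell, against 28.4% of all genes tested, and 3 rose, against 28%. In KFs against KFc, 18 fell, against 22.7% of all genes, and 1 rose, against 26.1%. In TFs against TFc, 17 fell, against 20.2%, and 3 rose, against 18.6%. All 20 enzymes fell in the heart, while 14 fell in the kidney and 14 in the tail. The median log2 fold change of the enzymes was -2.30 in the heart, -0.77 in the kidney and -1.22 in the tail, beside medians over all genes of 0.05, 0.09 and 0.00. With a log2 fold change beyond 1 in size required as well, 17, 8 and 12 of the enzymes fell, where 9.33%, 7.99% and 5.53% of all genes did. In all 3 organs, 13 of the 20 enzymes and 16 of the 29 genes fell, against 10.9% of all genes tested. Of these, *Idi1*, *Fdft1* and *Srebf2* did not pass in the kidney without KFs replicate 3. Without KFs replicate 3, 12 enzymes fell in the kidney and 15 in the tail, and 20 still fell in the heart. Of the 29 genes, 16 then fell in the kidney, 19 in the tail and 25 in the heart. Without HFs replicate 2, 24 of the 29 genes fell in the heart and 2 rose. The share of all genes that fell or rose in these fits is not given here, so these counts cannot be set against it.

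**Figure D2:**
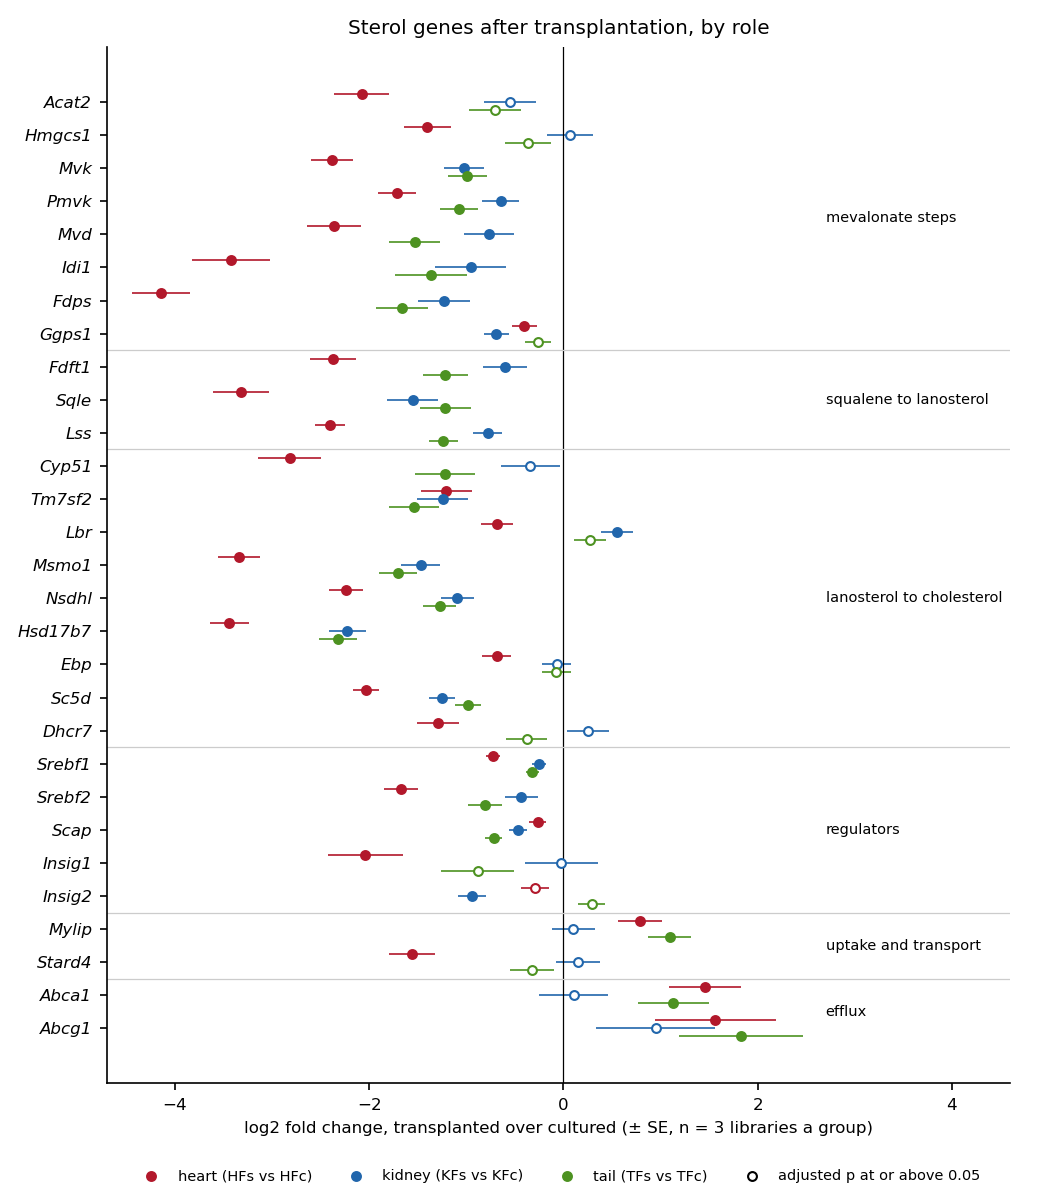
Log2 fold change of each of the 29 genes, transplanted over cultured, with its SE, for heart (red), kidney (blue) and tail (green), ordered by role. Filled points passed the adjusted p threshold of 0.05 and open points did not. The heart points lie farthest to the left for 18 of the 20 enzymes, and the efflux pumps lie to the right of 0.

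Cell markers were counted in the same comparisons, and their part in the results was not tested. Of all genes tested, 28%, 26.1% and 18.6% rose in heart, kidney and tail, and 28.4%, 22.7% and 20.2% fell. The counts of markers are to be read against these shares. Of the 9 fibroblast markers, 6, 6 and 5 rose and 2, 1 and 1 fell in heart, kidney and tail. They summed to 19900 to 21000 CPM in HFc and 75200 to 125000 CPM in HFs, to 15300 to 16200 CPM in KFc and 19700 to 95000 CPM in KFs, with the lowest in replicate 3, and to 18200 to 18300 CPM in TFc and 33200 to 40300 CPM in TFs. Of the 12 proximal tubule markers, 12, 11 and 12 rose and 0 fell. The proximal tubule markers summed to 14.2 to 20.6 CPM in HFc and TFc and to 151 to 1400 CPM in HFs and TFs, and in the kidney to 95.7 to 102 CPM in KFc and 71.7 to 146 CPM in KFs. Of these markers, 8 were at 0 in KFc, and Kap, Slc27a2 and Pck1 were at 0 in all cultured libraries. Of the 6 epithelial markers, 3, 1 and 3 rose and 1, 0 and 1 fell. Of the 7 endothelial markers tested, 6, 3 and 3 rose and 0, 1 and 0 fell in heart, kidney and tail. Of the 5 erythroid markers, 5, 1 and 5 rose, with sums of 0 in culture and at most 42.5 CPM after transplantation. The 10 proliferation genes went different ways: 7 fell in the heart (from 555 to 605 CPM in HFc to 316 to 441 CPM in HFs), 10 rose in the kidney (from 189 to 193 CPM in KFc to 499 to 1110 CPM in KFs), and 1 rose in the tail (341 to 366 CPM in TFc, 354 to 938 CPM in TFs).

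The promoters of the enzymes are shown because the enzymes moved together. RefSeq windows on GRCm38.p6, from 250 bases before to 50 bases after the annotated start, were found for 24 of the 29 genes, with none for *Abcg1*, *Fdft1*, *Fdps*, *Sqle* and *Stard4*. The 250 bases before the start follow for the 4 enzymes with a window that had the largest mean fall over the 3 organs, *Hsd17b7* (chr1:169969206-169969455, minus strand), *Msmo1* (chr8:64733579-64733828, minus strand), *Idi1* (chr13:8885356-8885605, plus strand) and *Mvd* (chr8:122443423-122443672, minus strand), and for *Hmgcs1* (chr13:119690101-119690350, plus strand), added after its motif match was seen. They read 5′ to 3′ on the strand of the gene. Capitals mark CCAAT, the letters bound by NF-Y, on either strand (ATTGG), and in *Hmgcs1* also the core of the sterol element bound by SREBP.
Hsd17b7: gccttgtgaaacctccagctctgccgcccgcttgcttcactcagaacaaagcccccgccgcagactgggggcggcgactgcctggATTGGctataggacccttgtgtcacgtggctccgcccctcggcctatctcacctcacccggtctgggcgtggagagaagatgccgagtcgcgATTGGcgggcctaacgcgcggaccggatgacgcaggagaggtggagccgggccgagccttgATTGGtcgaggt
Msmo1: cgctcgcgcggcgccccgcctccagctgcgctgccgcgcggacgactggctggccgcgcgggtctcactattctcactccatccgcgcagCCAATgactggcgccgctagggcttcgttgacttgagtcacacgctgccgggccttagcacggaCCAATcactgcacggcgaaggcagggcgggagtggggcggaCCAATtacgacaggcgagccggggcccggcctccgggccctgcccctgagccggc
Idi1: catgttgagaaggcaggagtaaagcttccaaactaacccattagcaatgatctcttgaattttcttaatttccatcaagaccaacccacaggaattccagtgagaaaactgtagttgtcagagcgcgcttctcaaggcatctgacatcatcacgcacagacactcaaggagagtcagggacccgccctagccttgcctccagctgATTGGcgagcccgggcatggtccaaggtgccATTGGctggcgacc
Mvd: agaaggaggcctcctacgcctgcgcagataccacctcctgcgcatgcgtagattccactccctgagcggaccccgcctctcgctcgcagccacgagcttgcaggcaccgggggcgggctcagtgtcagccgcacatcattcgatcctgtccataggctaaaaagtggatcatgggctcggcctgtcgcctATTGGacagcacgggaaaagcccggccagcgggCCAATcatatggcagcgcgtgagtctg
Hmgcs1: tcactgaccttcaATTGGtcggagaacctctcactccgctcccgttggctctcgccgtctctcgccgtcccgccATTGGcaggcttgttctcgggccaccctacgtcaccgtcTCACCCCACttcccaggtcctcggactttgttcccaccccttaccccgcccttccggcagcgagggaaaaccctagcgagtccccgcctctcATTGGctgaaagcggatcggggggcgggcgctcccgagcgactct

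CCAAT on either strand was present in a window of 21 of the 24 genes and of 16 of the 17 enzymes, and in a window of 41.1% of the 27025 genes in the table. A gene can have several windows, and the 24 genes had 32. *Acat2* was the enzyme without it. GGGCGG, the GC box bound by SP1, was in 22 of the 24 genes and in 38.2% of all genes. The classic sterol element with all its letters was in none of the 24 and in 0.0999% of all genes. A core with 1 free base, TCACNCCAC, was in *Hmgcs1* alone and in 1.44% of all genes. CACGTG, the E-box that SREBP1 can also bind, was in 6 of the 24 genes and in 8.09% of all genes. A pair of AGGTCA letters 4 bases apart, an exact form of the DR4 element bound by liver X receptors, was in none of the 24 and in 0.0148% of all genes. The motifs can overlap each other, and a match is a match of letters and not a measured site. Only these letters within these windows were searched, so the lack of a match does not show that a gene lacks a site.

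The 8 enzymes of the mevalonate stretch all fell in the heart, 6 fell in the kidney and 5 in the tail. *Fdps*, which makes farnesyl diphosphate, the branch point between sterols and other isoprenoids, had 106, 112 and 116 CPM in HFc and 7.82, 6.88 and 4.40 CPM in HFs. This 17.7-fold lower level was the largest fall of any of the 29 genes in any organ (log2 fold change -4.14 ± 0.30 SE, adjusted p = 4.03e-08). In the kidney *Fdps* had 55.6, 53.7 and 50.7 CPM in KFc and 19.7, 33.5 and 14.8 CPM in KFs (log2 -1.23 ± 0.26, adjusted p = 0.00126), and in the tail 76.9, 71.0 and 73.0 CPM in TFc and 24.3, 30.5 and 15.2 CPM in TFs (log2 -1.66 ± 0.27, adjusted p = 0.000187). The groups did not overlap in any organ, where 34%, 25% and 31.2% of all genes tested lay wholly lower in heart, kidney and tail. *Fdps* shares 1124 exon bases with a same-strand gene model, Gm43738, and reads there may have been divided between them.

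*Idi1*, the isomerase of the isoprenoid building units, fell 10.7-fold in the heart, from 81.5, 78.3 and 89.0 CPM to 8.48, 9.61 and 5.16 CPM (adjusted p = 4.1e-06). It had 36.4, 36.0 and 32.3 CPM in KFc and 19.3, 28.0 and 6.49 CPM in KFs, a 1.94-fold fall (adjusted p = 0.0413) that no longer passed without any 1 library other than KFs replicate 2 (log2 -0.60, adjusted p = 0.0546 without KFs replicate 3). In the tail it fell 2.57-fold (adjusted p = 0.0085). *Mvk* and *Pmvk*, the kinases that phosphorylate mevalonate, and *Mvd*, the decarboxylase after them, fell in all 3 organs. Their falls were 5.21-fold, 3.27-fold and 5.14-fold in the heart, 2.03-fold, 1.56-fold and 1.70-fold in the kidney, and 1.98-fold, 2.11-fold and 2.89-fold in the tail. In the kidney the fall of *Pmvk* did not pass without KFc replicate 1 (log2 -0.55), nor that of *Mvd* without KFc replicate 1 (-0.77) or 2 (-0.73).

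The first 2 enzymes of the route passed the threshold in the heart, and not in the kidney or the tail when all libraries were fitted. *Acat2*, the cytosolic thiolase that joins acetyl-CoA units, went from 22.9, 21.4 and 21.6 CPM in HFc to 4.81, 6.52 and 4.29 CPM in HFs (4.21-fold lower, adjusted p = 1.81e-05). In the other organs its log2 fold changes were -0.55 ± 0.27 (adjusted p = 0.108) in the kidney and -0.70 ± 0.27 (adjusted p = 0.0504) in the tail. The tail value passed without KFs replicate 3, a library of neither group (log2 -0.72 ± 0.17, adjusted p = 0.00231). *Hmgcs1*, HMG-CoA synthase, went from 127, 121 and 131 CPM in HFc to 46.3, 61.7 and 35.4 CPM in HFs (2.64-fold lower, adjusted p = 0.000161). It had 78.5, 112 and 50.9 CPM in KFs around the 76.3, 76.4 and 77.7 CPM of KFc, and 89.3, 98.0 and 60.1 CPM in TFs below the 98.7, 108 and 112 CPM of TFc, with adjusted p of 0.831 and 0.238. KFs libraries lay on both sides of KFc, and all TFs libraries lay below TFc, the highest of them close to the lowest of TFc. Of all genes tested, 31.2% lay wholly lower in TFs than in TFc. For both genes the heart response was lower than that of the kidney and of the tail when the responses were compared directly. *Ggps1*, which makes geranylgeranyl diphosphate for protein prenylation and not for sterols, moved least among the 8 in the heart (1.32-fold lower, adjusted p = 0.0171, not past the threshold without HFc replicate 1 or 2 or HFs replicate 2 or 3) and fell 1.61-fold in the kidney (adjusted p = 0.000502), with a log2 fold change of -0.26 ± 0.13 in the tail (adjusted p = 0.132).

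The 3 enzymes that lead from farnesyl diphosphate to lanosterol fell in every organ. *Fdft1*, squalene synthase, had 69.0, 77.1 and 69.4 CPM in HFc and 16.4, 15.4 and 10.1 CPM in HFs, a 5.18-fold fall, and fell 2.32-fold in the tail. Its 1.52-fold fall in the kidney (adjusted p = 0.0376) no longer passed without any 1 library other than KFs replicate 2 (adjusted p = 0.0875 without KFs replicate 3). *Sqle*, squalene epoxidase, had 71.9, 74.0 and 70.7 CPM in HFc and 9.02, 7.58 and 5.32 CPM in HFs, a 9.96-fold fall. It fell 2.93-fold in the kidney, from 66.0, 67.9 and 65.1 CPM to 19.3, 34.2 and 14.3 CPM, and 2.32-fold in the tail, from 61.5, 59.5 and 60.1 CPM to 27.3, 33.1 and 17.7 CPM. *Lss*, lanosterol synthase, fell 5.27-fold, 1.72-fold and 2.35-fold in heart, kidney and tail. No transplanted library overlapped its cultured controls for any of the 3 genes, where 34%, 25% and 31.2% of all genes tested lay wholly lower in heart, kidney and tail.

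Of the 9 enzymes after lanosterol, 9 fell in the heart, 5 in the kidney and 6 in the tail. *Hsd17b7*, a sterol ketone reductase, had the largest fall of all 29 genes in the kidney and in the tail. It had 80.4, 79.4 and 79.7 CPM in HFc and 7.34, 7.45 and 7.29 CPM in HFs (10.8-fold lower, adjusted p = 5.48e-09). The kidney values were 72.0, 67.9 and 61.5 CPM in KFc and 10.6, 20.4 and 12.0 CPM in KFs (4.67-fold lower, adjusted p = 3e-07), and the tail values 47.6, 47.1 and 51.7 CPM in TFc and 9.53, 11.9 and 7.85 CPM in TFs (5.01-fold lower, adjusted p = 4.32e-07). The groups did not overlap in any organ, and the 3 HFs libraries were close to each other. Of all genes tested, 34%, 25% and 31.2% lay wholly lower in heart, kidney and tail.

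*Msmo1*, which removes methyl groups from the sterol ring, fell 10.1-fold in the heart, from 112, 113 and 117 CPM to 11.1, 12.3 and 10.4 CPM, and 2.77-fold and 3.25-fold in kidney and tail. *Nsdhl*, its partner dehydrogenase, fell 4.71-fold, 2.13-fold and 2.41-fold, and *Sc5d*, which places a double bond in the ring, fell 4.09-fold, 2.37-fold and 1.98-fold. *Tm7sf2*, a sterol reductase at a low level in all groups (3.49 to 10.2 CPM in culture), fell 2.30-fold, 2.37-fold and 2.90-fold, so that it was one of 2 enzymes whose fall was not greatest in the heart. It shares 532 exon bases with the same-strand gene Vps51. *Cyp51*, lanosterol demethylase, fell 7.04-fold in the heart, from 118, 128 and 120 CPM to 21.8, 18.3 and 12.0 CPM, and 2.33-fold in the tail. Its KFs values of 36.6, 61.5 and 19.8 CPM lay on both sides of the 47.6 to 51.8 CPM of KFc (log2 -0.34 ± 0.30, adjusted p = 0.374).

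The remaining enzymes of this stretch moved less. *Ebp*, a sterol isomerase, fell 1.61-fold in the heart (adjusted p = 0.00119), and its log2 fold changes in kidney and tail were -0.07 ± 0.15 in both. *Dhcr7*, which acts at the last steps and also decides the supply of a vitamin D precursor, fell 2.45-fold in the heart (adjusted p = 0.00012), with log2 fold changes of 0.25 ± 0.22 in the kidney and -0.38 ± 0.21 in the tail. *Lbr* went the other way in the kidney. This sterol reductase is also a receptor of the inner nuclear membrane that binds lamin B. It had 14.5, 14.8 and 14.8 CPM in KFc and 20.2, 26.9 and 17.7 CPM in KFs (1.47-fold higher, adjusted p = 0.0102), whereas it fell 1.60-fold in the heart (adjusted p = 0.00227), and was the single enzyme that rose in any organ. Its rise in the kidney did not pass without KFs replicate 2 (log2 0.32).

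Per kb of exons, which allows genes to be compared, *Cyp51*, *Hmgcs1* and *Fdps* had the highest levels of the 29 genes in HFc, at 27.6, 27.5 and 26.5 CPM per kb, and *Dhcr7* (2.12), *Tm7sf2* (0.929) and *Abcg1* (0.574) the lowest. These 3 leading levels differed by less than the SD between libraries of *Fdps* (1.21 CPM per kb). In HFs *Fdps* had 1.51 CPM per kb and took rank 23, and *Cyp51* had 3.94 and rank 10, while *Hmgcs1* kept rank 2 at 10.4 CPM per kb. *Abca1* was highest in HFs and TFs, at 34.4 and 28.3 CPM per kb, also with the longest transcript as the length. In cultured KFc *Abca1* was highest as well (17.6, with 16.7 for *Hmgcs1*), but not with the longest transcript (17.8, with 22.2 for *Hmgcs1*). In KFs it had 18.9 ± 12.1 (SD) and *Hmgcs1* 17.5 ± 6.68 CPM per kb, within the spread of each other, and *Hmgcs1* was higher with the longest transcript (23.3 against 19.1) and without KFs replicate 3 (20.8 against 13.5). With the longest transcript as the length, the HFc levels were 31.0 for *Cyp51*, 36.4 for *Hmgcs1*, 37.7 for *Fdps* and 38.3 for *Msmo1*, so the order of the leading genes depends on the length used.

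**Figure D3:**
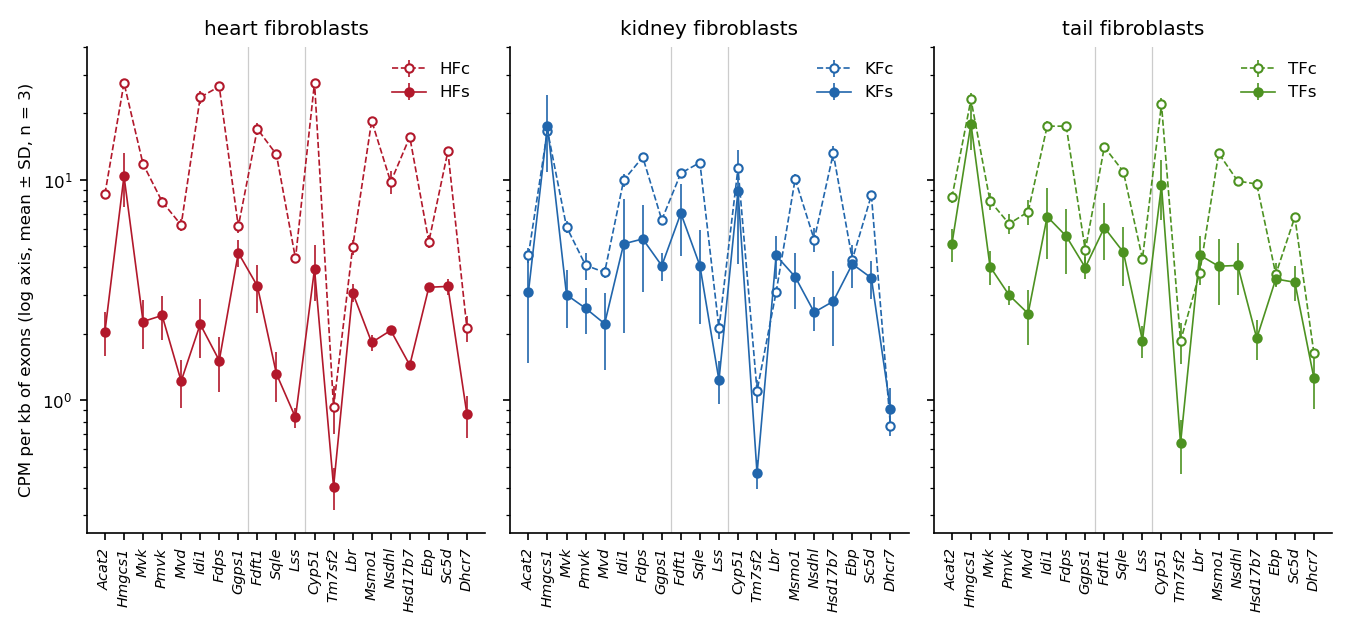
Mean level ± SD (n = 3) of the 20 enzymes in CPM per kb of exons on a log axis, in the order of the pathway, with vertical lines between its 3 stretches, for heart, kidney and tail (open and dashed cultured, filled transplanted). The gap between both states is widest in the heart, where *Fdps* goes from 26.5 to 1.51 CPM per kb, and is narrow at *Ebp* in kidney and tail.

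For most enzymes the libraries of a transplanted group spread more widely than those of the cultured group of the same organ. The median SD of log2 CPM over the 20 enzymes was 0.072 in HFc, 0.084 in KFc and 0.079 in TFc, and 0.317 in HFs, 0.432 in KFs and 0.371 in TFs. The SD was larger after transplantation for 17, 20 and 17 of the 20 enzymes in heart, kidney and tail, and not for *Tm7sf2*, *Nsdhl* and *Ebp* in the heart or *Pmvk*, *Ggps1* and *Ebp* in the tail. Among the 14209 genes tested that had counts in every library, it was larger for 67.2%, 83.1% and 60.6%, with medians of 0.109 to 0.11 in culture and of 0.179, 0.327 and 0.153 in HFs, KFs and TFs. KFs replicate 2 was the highest of its group for 17 of the 20 enzymes and KFs replicate 3 the lowest for 16. TFs replicate 2 was highest for 17 and TFs replicate 3 lowest for 18, and HFs replicate 3 was lowest for 15. In each organ the transplanted library with the lowest summed enzyme level, replicate 3, was also the one with the most *Abca1* RNA, at 449 CPM in HFs, 310 CPM in KFs and 330 CPM in TFs. Between replicates 1 and 2 the order was also opposite in KFs and TFs, but not in HFs. There replicate 2 was above replicate 1 in summed enzymes (238 and 231 CPM) and in *Abca1* (365 and 256 CPM). KFs replicate 3 is the library with high *Xist* RNA. The labels do not say whether same-numbered libraries were handled together.

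Of the 5 regulators, *Srebf1*, *Srebf2* and *Scap* fell in all 3 organs. *Srebf2*, which encodes the SREBP that drives sterol genes, had 127, 129 and 126 CPM in HFc and 49.2, 39.6 and 31.1 CPM in HFs, a 3.19-fold fall (adjusted p = 1.41e-06). It had 103, 92.4 and 94.0 CPM in KFc and 63.9, 92.7 and 57.6 CPM in KFs, a 1.35-fold fall (adjusted p = 0.0475) that no longer passed without any 1 library other than KFs replicate 2 (adjusted p = 0.1 without KFs replicate 3), and it fell 1.75-fold in the tail (adjusted p = 0.00174). KFs replicate 2 lay within KFc, and the other transplanted libraries all lay below their controls. Of all genes tested, 34% and 31.2% lay wholly lower in heart and tail. *Srebf1*, which encodes the SREBPs that also act on fatty acid synthesis, fell 1.65-fold, 1.19-fold and 1.25-fold in heart, kidney and tail (adjusted p = 6.4e-07, 0.00745 and 0.00212). *Scap*, the escort and sterol sensor, fell 1.20-fold, 1.38-fold and 1.64-fold (adjusted p = 0.0196, 0.000485 and 1.96e-05), with its smallest fall in the heart, which passed neither with DESeq2 (log2 -0.20) nor without HFc replicate 1 (-0.25), HFs replicate 1 (-0.14) or HFs replicate 3 (-0.19).

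The 2 INSIG genes behaved differently from each other. *Insig1*, itself a target of SREBP, had 77.0, 79.5 and 78.4 CPM in HFc and 25.0, 21.0 and 11.5 CPM in HFs (4.11-fold lower, adjusted p = 0.000374). In KFs it had 31.1, 47.0 and 11.1 CPM around the 30.1, 29.2 and 31.4 CPM of KFc (log2 -0.02 ± 0.37, adjusted p = 0.969), and in TFs 29.9, 38.4 and 18.2 CPM, all below the 51.7, 54.9 and 52.5 CPM of TFc (log2 -0.88 ± 0.38, adjusted p = 0.0761). Without KFs replicate 3, a library of neither tail group, the tail value passed (log2 -0.90 ± 0.24, adjusted p = 0.00645). For 31.2% of all genes tested, every TFs library lay below TFc. *Insig2* had 22.5, 23.8 and 24.2 CPM in KFc and 11.9, 10.2 and 14.6 CPM in KFs (1.92-fold lower, adjusted p = 7.84e-05). In the tail it had 25.3, 26.9 and 26.8 CPM in TFc and 34.1, 34.0 and 28.4 CPM in TFs (log2 0.29 ± 0.14, adjusted p = 0.119), and in the heart its log2 fold change was -0.29 ± 0.14 (adjusted p = 0.0944). Its response in the kidney was lower than in the tail by 1.23 ± 0.20 on the log2 scale (adjusted p = 0.0014), the single difference between the kidney and tail responses among the 29 genes.

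The efflux pumps went opposite to the enzymes in heart and tail. *Abca1*, which exports cholesterol to lipid-poor apolipoproteins, had 127, 133 and 130 CPM in HFc and 256, 365 and 449 CPM in HFs (2.75-fold higher, adjusted p = 0.00322). In the tail it had 141, 130 and 131 CPM in TFc and 284, 266 and 330 CPM in TFs (2.19-fold higher, adjusted p = 0.0226). In the kidney its values were 172, 187 and 188 CPM in KFc and 218, 61.3 and 310 CPM in KFs (log2 0.11 ± 0.36, adjusted p = 0.829). All HFs and TFs libraries lay above their controls, as they did for 5516 and 4850 of the 16577 genes tested in heart and tail. KFs replicate 2 lay below KFc and the other KFs libraries above it.

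*Abcg1*, which exports cholesterol to mature lipoproteins, was low in culture, with 3.94, 3.52 and 5.11 CPM in HFc and 1.75, 2.47 and 2.89 CPM in TFc. It rose 2.96-fold in HFs, to 7.46, 13.7 and 15.9 CPM (adjusted p = 0.0421), and 3.56-fold in TFs, to 9.47, 6.45 and 9.29 CPM (adjusted p = 0.0336). In the kidney it had 5.41, 5.45 and 4.82 CPM in KFc and 3.44, 2.31 and 24.6 CPM in KFs, so that its log2 fold change of 0.95 ± 0.61 (adjusted p = 0.212) became a fall of 0.91 ± 0.31 (adjusted p = 0.0235) without KFs replicate 3. The *Abca1* fold change in the kidney also turned, to -0.43 ± 0.33 (adjusted p = 0.299). All HFs and TFs libraries of *Abcg1* lay above their controls, to be read against the same counts of all genes as for *Abca1*. In the heart its rise no longer passed when any 1 of the 3 HFc libraries, HFs replicate 2 or HFs replicate 3 was left out (log2 1.39 to 1.73), and in the tail when any 1 of the 3 TFc libraries, TFs replicate 1 or TFs replicate 3 was left out (log2 1.64 to 1.98). Without KFs replicate 3, a library of neither comparison, the adjusted p was 9.91e-05 for the heart rise and 7.44e-05 for the tail rise. The *Abca1* rise in the tail no longer passed without any 1 of the 3 TFc libraries or without TFs replicate 3 (log2 1.04 to 1.17). The 12 macrophage and leukocyte markers, cells in which both pumps are abundant, summed to 114 to 134 CPM in HFc and 110 to 183 CPM in HFs, to 500 to 542 CPM in KFc and 39.5 to 173 CPM in KFs, and to 198 to 226 CPM in TFc and 46.2 to 54.5 CPM in TFs. None was at 0 in any group. Of these markers, 1 rose in the heart, where 28% of all genes did. In the kidney 7 fell and in the tail 7, where 22.7% and 20.2% of all genes did.

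*Mylip*, the ligase that sends the LDL receptor to degradation, moved with the pumps. It rose 1.72-fold in the heart, from 15.6, 11.3 and 14.9 CPM to 19.6, 27.0 and 25.4 CPM (adjusted p = 0.00765), and 2.14-fold in the tail, from 24.4, 23.5 and 24.4 CPM to 47.8, 49.4 and 57.3 CPM (adjusted p = 0.00121). Its KFs values of 13.5, 9.46 and 22.3 CPM lay around the 14.6, 14.2 and 13.2 CPM of KFc, with the highest again in replicate 3. *Stard4*, a soluble carrier of cholesterol between membranes, followed the enzymes in the heart, where it had 41.8, 43.1 and 44.0 CPM in HFc and 15.7, 15.3 and 12.8 CPM in HFs (2.94-fold lower, adjusted p = 4.56e-05). Its log2 fold changes were 0.15 ± 0.23 in the kidney and -0.32 ± 0.23 in the tail.

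**Figure D4:**
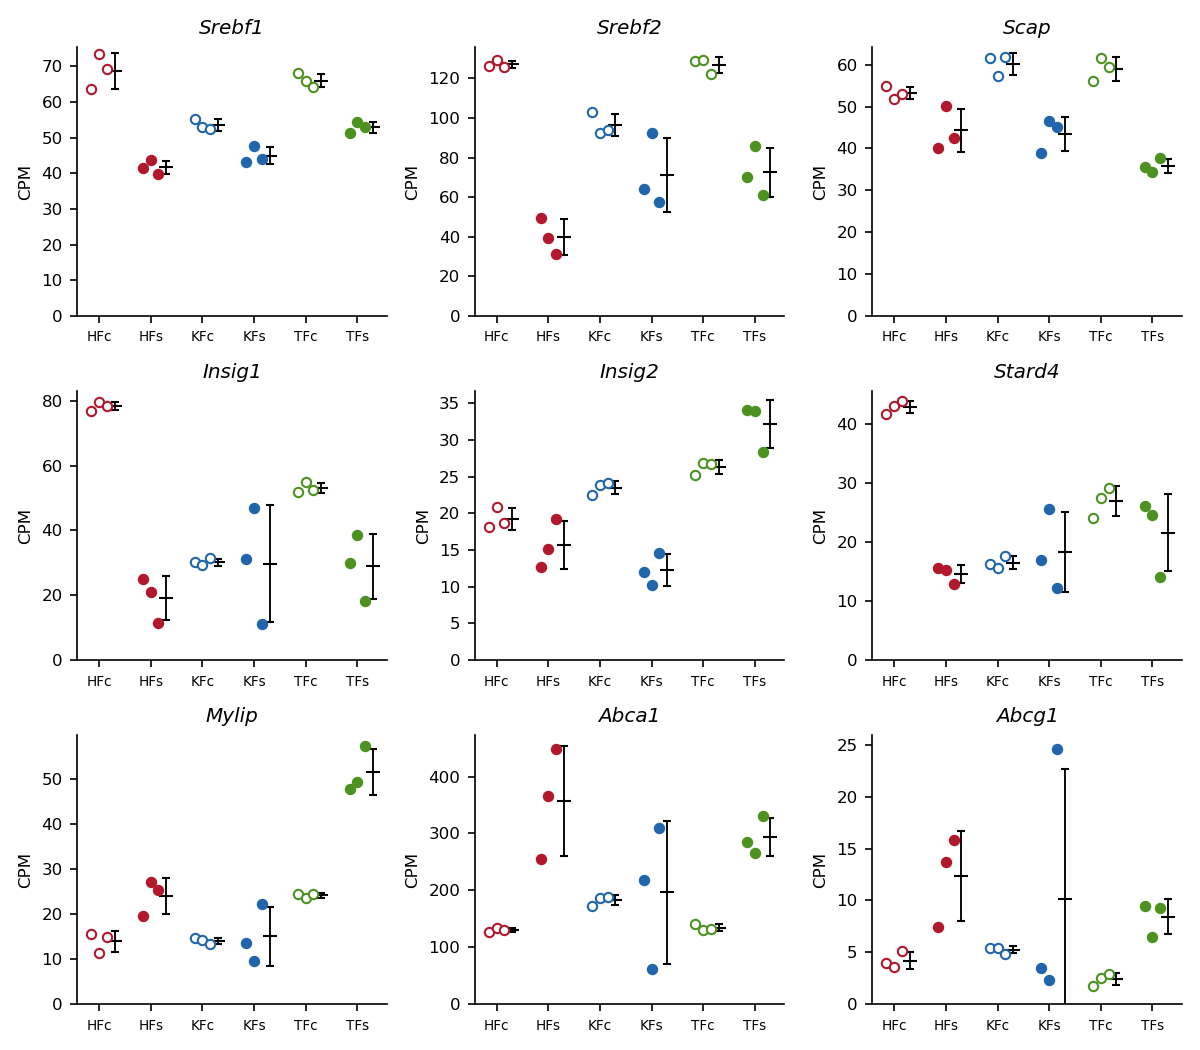
CPM of the 5 regulators, the 2 genes of uptake and transport and the 2 efflux pumps in each library (open circles cultured, filled circles transplanted), with the mean ± SD of each group (n = 3). HFs lies below HFc for *Srebf1*, *Srebf2*, *Insig1* and *Stard4* and above it for *Mylip*, *Abca1* and *Abcg1*, and a single KFs library, replicate 3 at 24.6 CPM, sets the high KFs mean of *Abcg1*.

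Whether the response differed between organs was tested directly with interaction contrasts. The heart response was lower than the kidney response for 22 of the 29 genes, 18 of them enzymes, against 15.5% of all genes, and higher for 1, *Insig2*, against 10.7%. It was lower than the tail response for 20 genes, 16 of them enzymes, against 12.7% of all genes, and higher for 1, *Scap*, against 10.1%. The kidney and tail responses differed for 1 gene, where 11.1% of all genes did. The largest differences between heart and kidney were those of *Fdps* (log2 -2.91 ± 0.39, adjusted p = 0.000124), *Cyp51* (log2 -2.48 ± 0.44, adjusted p = 0.000851) and *Idi1* (log2 -2.47 ± 0.53, adjusted p = 0.00305). With all libraries, no difference between the responses passed for *Abca1*, *Abcg1* or *Mylip*. Without KFs replicate 3, 22 genes were lower in the heart than in the kidney and 4 were higher, and the kidney and tail responses differed for 7 genes, 2 of them enzymes. *Abca1*, *Abcg1* and *Mylip* were then among them in both contrasts. The heart response was higher than the kidney response by 1.91 ± 0.45 for *Abca1* (adjusted p = 0.00396), 2.50 ± 0.42 for *Abcg1* (adjusted p = 0.000297) and 1.14 ± 0.23 for *Mylip* (adjusted p = 0.00125) on the log2 scale. The log2 difference of kidney and tail responses was -1.54 ± 0.45, -2.73 ± 0.42 and -1.41 ± 0.23 (adjusted p = 0.0223, 0.000321 and 0.000416). The share of all genes whose responses differed without KFs replicate 3 is not given here, so the counts cannot be set against it.

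The organs also differed within each state, and the order of heart and kidney turned over. In culture, HFc had the highest mean of the 3 organs for 16 of the 20 enzymes and KFc the lowest for 14. Against KFc, 18 of the 29 genes were higher in HFc, against 15.1% of all genes, and none was lower, against 14%. *Dhcr7* was 2.76-fold higher in HFc than in KFc (adjusted p = 0.000101), *Cyp51* 2.45-fold (adjusted p = 0.00465) and *Insig1* 2.59-fold (adjusted p = 0.0121). KFc was lower than TFc for 11 genes, against 18.5% of all genes, and higher for 1, against 17.8%, with *Lss* 2.07-fold and *Dhcr7* 2.13-fold lower. HFc and TFc differed for 9 genes in the fit of all 18 libraries: 6 were higher in HFc, against 20.9% of all genes, and 3 lower, against 21%. Every HFc library lay above every TFc library for 15 of the 20 enzymes, and for 5240 of the 16577 genes tested. Every HFc library lay below for 1 enzyme, and for 5052 genes. In that fit all groups share an estimate of the spread, and most enzymes spread more widely after transplantation. The part of this in the counts was not tested. *Sc5d* was 1.98-fold higher in HFc (adjusted p = 1.88e-05) and *Tm7sf2* 1.99-fold lower (adjusted p = 0.00486). With only the 6 libraries of a comparison fitted, 22 genes differed between HFc and TFc and 26 between KFc and TFc. Without KFs replicate 3, a library of neither comparison, these counts were 13 and 17. The share of all genes that differed in these fits is not given here, so these counts cannot be set against it.

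After transplantation HFs had the lowest mean of the 3 organs for 19 of the 20 enzymes, and the lowest of all 6 groups for 18. Against TFs, 17 genes were lower in HFs, against 12.7% of all genes, and 1 was higher, against 10.3%. *Fdps* was 3.70-fold lower (adjusted p = 0.00018), *Sqle* 3.59-fold (adjusted p = 0.000181), *Lss* 2.24-fold (adjusted p = 4.55e-05) and *Insig2* 2.05-fold (adjusted p = 9e-05). Against KFs, 12 genes were lower in HFs, against 19% of all genes, and 1, *Mylip*, was higher, against 14.2%. This count depends on the samples fitted: it was 1 in all when only HFs and KFs were fitted, 21 without KFs replicate 3, 6 without KFs replicate 2 and 8 without HFs replicate 3. The share of all genes that differed in these fits is not given here. For 9 enzymes, the level was higher in HFc than in KFc and lower in HFs than in KFs, both at the threshold. KFs and TFs differed for 7 genes, where 29.1% of all genes did, among them *Mylip* (3.43-fold lower in KFs, adjusted p = 4.08e-05) and *Insig2* (2.63-fold lower, adjusted p = 6.47e-06).

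**Figure D5:**
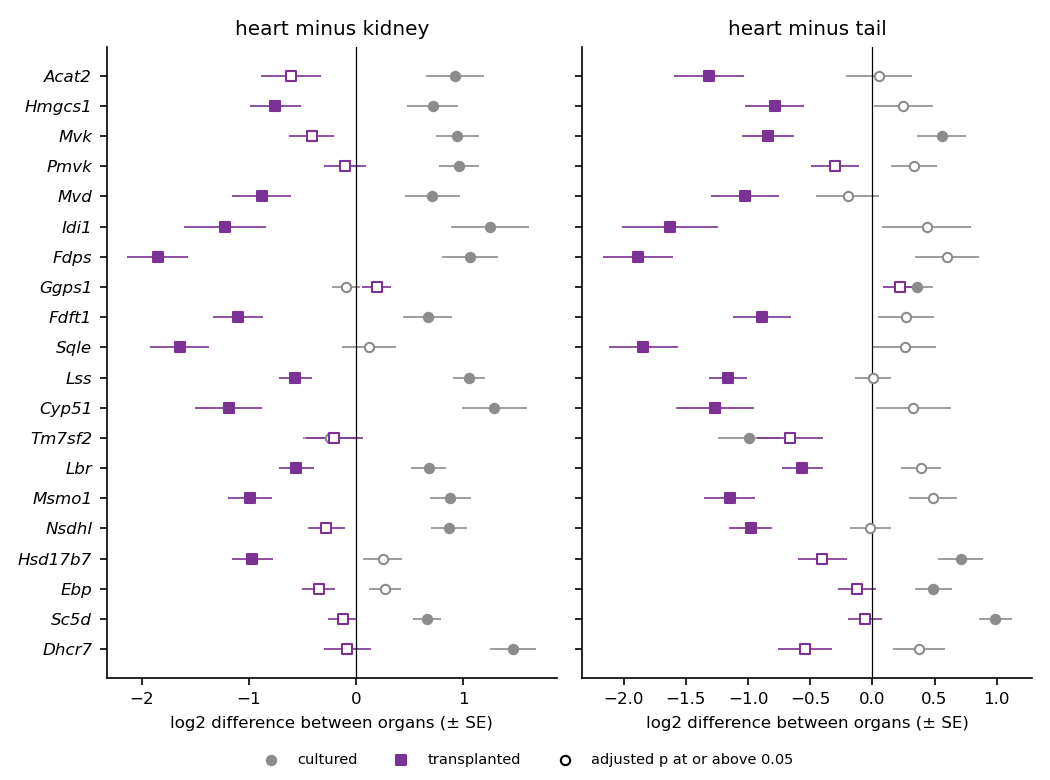
Log2 difference between organs (± SE) for the 20 enzymes, heart minus kidney (left) and heart minus tail (right), in culture (grey circles) and after transplantation (purple squares). Filled symbols passed the adjusted p threshold of 0.05. Heart minus kidney is above 0 for 18 enzymes in culture and below 0 for 19 after transplantation.

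Genes beside the main pathway were counted by lists, to be read against the 28.4%, 22.7% and 20.2% of all genes that fell and the 28%, 26.1% and 18.6% that rose in heart, kidney and tail. Among 9 further genes of SREBP processing, 4 fell and 1 rose in each organ, and *Ufd1* (log2 -0.94, -0.52 and -0.75 in heart, kidney and tail) and *Aup1* (-0.28, -0.34 and -0.45), both genes of the degradation of proteins of the endoplasmic reticulum, fell in all 3 organs. Among 20 further genes of sterol uptake and transport, 8 fell and 7 rose in the heart, 8 fell and 3 rose in the kidney, and 4 fell and 3 rose in the tail. The sterol transporter gene *Gramd1c* rose in all organs (log2 1.49, 1.26 and 0.89), as did *Gramd1a* by less (0.22, 0.32 and 0.40), and *Osbpl5* fell (-1.23, -1.20 and -0.42). The median of this list lay near 0 in each organ (log2 0.05, -0.25 and -0.06).

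Of 9 genes of sterol esterification and oxysterols, 4 rose and 1 fell in the heart, 3 rose and 2 fell in the kidney, and 2 rose and 1 fell in the tail. *Cyp7b1*, an oxysterol hydroxylase, rose by 4.62, 5.84 and 2.86 on the log2 scale in heart, kidney and tail. Its mean in culture was low in HFc (0.576 CPM) and KFc (0.439 CPM), and 9.54 CPM in TFc. *Nceh1*, a cholesteryl ester hydrolase, fell by 1.24, 1.38 and 1.24. Of 10 genes around the liver X receptors, *Abca9* rose (log2 1.59, 2.14 and 1.26) and *Nr1h2*, which encodes one of the receptors, fell (-0.43, -0.50 and -0.47). In this list 3 rose and 1 fell in the heart, 2 rose and 5 fell in the kidney, and 1 rose and 2 fell in the tail. Of 12 genes of the isoprenoid branches, 7, 6 and 5 fell, against 28.4%, 22.7% and 20.2% of all genes, and 0, 1 and 1 rose. *Fnta*, a subunit of the prenyltransferases, fell by 0.70, 0.80 and 0.91 on the log2 scale, *Nus1* of dolichol synthesis by 0.86, 0.43 and 0.35, and *Zmpste24* and *Icmt*, which process prenylated proteins, also fell in all 3.

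Fatty acid synthesis is the other route under SREBP control. Of the 16 genes tested of 17 listed, 12 fell in the heart, 6 in the kidney and 11 in the tail, against 28.4%, 22.7% and 20.2% of all genes, and 1, 2 and 1 rose, with medians of -0.87, -0.19 and -0.62 on the log2 scale. *Scd1*, the stearoyl-CoA desaturase, fell by 1.48, 0.94 and 2.57 in heart, kidney and tail. *Fads2* fell by 2.04, 0.47 and 1.15, *Fads1* by 1.32, 0.47 and 1.29, and *Me1*, the malic enzyme that supplies NADPH, by 0.92, 1.50 and 0.75. The genes that rose, named after their values were seen, were *Acacb* in the heart (log2 1.24) and the tail (0.80), and *Acsl4* (1.08) and *Elovl6* (0.89) in the kidney. These lists were described by their counts and medians and not tested as sets.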

How the data were processed

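RNA of 18 libraries was analysed, 3 for each of HFs, KFs, TFs, HFc, KFc and TFc, with groups and replicate numbers taken from the sample titles. The libraries were stranded and were read as single ends of 75 bases. According to the study's methods, the authors trimmed the reads for quality and aligned them to the GRCm38 genome (Bowtie2, called by RSEM), with strand taken into account. The submitters' processing notes list mm9 as the build, and coordinates here are those of GENCODE mouse release M21 and RefSeq on GRCm38. The authors deposited expected counts per Ensembl gene, not normalized, which were whole numbers in every cell, so no rounding was needed. The annotation release they used is not given in the sources used here. RSEM divides reads that fit several genes, so members with pseudogenes or same-strand overlaps are less certain. Symbols were matched for 37607 of the 38924 identifiers.

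The 29 genes, their roles and the other lists were chosen with earlier results of these data known. Counts were tested with the quasi-likelihood method of edgeR 4.0.16 (R 4.3.3), after filterByExpr, TMM scaling and estimateDisp, with all 18 libraries in 1 fit with a mean per group, without a replicate block, and with Benjamini-Hochberg adjustment over 16577 genes. Calls use an adjusted p of 0.05, and counts with a log2 fold change beyond 1 in size are given beside them. Differences between responses are interaction contrasts. The SE is the log2 fold change divided by the square root of its F statistic. The common dispersion corresponds to a biological coefficient of variation of 0.24. The fit was tested on simulated counts. CPM are counts per 1000000 of the TMM-scaled library size, and levels per kb use the union of annotated exons. Of other lists, at most 4 genes are named, those called in the same direction in all 3 transplant comparisons with the largest mean size of change, and some genes that meet this rule are not reported here. Promoters are printed for enzymes with the largest mean fall, since fewer than 3 windows held the sterol element. Pairs of libraries within a group differed beyond sampling noise (chi-square per degree of freedom 4.74 to 258). A floor of 3 counts corresponds to 0.093 to 0.167 CPM of the unscaled library totals. This floor takes no error between libraries into account. Over all genes tested, same-numbered libraries of different groups did not deviate together (residual r from -0.139 to 0.0792 over 27 pairs), so the numbers were not used as pairs. For the enzymes alone this was not computed. Their summed level was highest in replicate 2 and lowest in replicate 3 in each of HFs, KFs and TFs.

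Alternatives were DESeq2 1.42.0, its size factors or library size alone, no filter or a mean of 10 counts, a replicate block, a fit of the compared groups alone, the exact test in edgeR, an adjusted p of 0.01, the fold limit, and each library left out. Figures were drawn in Python 3.11.15 with matplotlib 3.10.9.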

Additional observations from a re-analysis of the deposited data

Results flagged for a closer look

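The response to transplantation (transplanted over cultured) differed between organs for many of the 29 genes by the interaction contrast, at an adjusted p under 0.05 in edgeR's quasi-likelihood test. Values are differences of log2 fold changes, the first organ minus the second, and negative values mean a lower response in the first. Groups of 3 libraries are too small for a test of single outlying samples, so none was made.

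Between heart and kidney, 23 responses differed. Between acetyl-CoA and the isoprenoids, the differences were -1.52 for *Acat2*, -1.47 for *Hmgcs1*, -1.36 for *Mvk*, -1.06 for *Pmvk*, -1.59 for *Mvd*, -2.47 for *Idi1* and -2.91 for *Fdps*. From farnesyl diphosphate to lanosterol, they were -1.77 for *Fdft1*, -1.77 for *Sqle* and -1.62 for *Lss*. After lanosterol, they were -2.48 for *Cyp51*, -1.24 for *Lbr*, -1.87 for *Msmo1*, -1.14 for *Nsdhl*, -1.21 for *Hsd17b7*, -0.62 for *Ebp*, -0.79 for *Sc5d* and -1.54 for *Dhcr7*. Outside the enzymes, the differences were -0.47 for *Srebf1*, -1.24 for *Srebf2*, -2.02 for *Insig1*, 0.65 for *Insig2* and -1.71 for *Stard4*.

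Between heart and tail, 21 responses differed. For the mevalonate stretch, the values were -1.37 for *Acat2*, -1.03 for *Hmgcs1*, -1.39 for *Mvk*, -2.06 for *Idi1* and -2.48 for *Fdps*. For the stretch to lanosterol, the values were -1.16 for *Fdft1*, -2.10 for *Sqle* and -1.16 for *Lss*. For the later enzymes, the values were -1.60 for *Cyp51*, -0.96 for *Lbr*, -1.64 for *Msmo1*, -0.96 for *Nsdhl*, -1.11 for *Hsd17b7*, -0.61 for *Ebp*, -1.05 for *Sc5d* and -0.92 for *Dhcr7*. Among the other genes, the values were -0.40 for *Srebf1*, -0.87 for *Srebf2*, 0.45 for *Scap*, -0.58 for *Insig2* and -1.24 for *Stard4*.

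Between kidney and tail the response differed for *Insig2*, at -1.23. The first and second sets share the heart libraries. KFs replicate 3, the library with high *Xist* RNA and almost no RNA of Y-linked genes, enters every kidney value. Without it, 26 responses differed between heart and kidney and 7 between kidney and tail. The share of all genes whose responses differed without this library is not given here.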

How the results depend on the processing

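The counts that fell were 20 to 25 in the heart and 12 to 19 in the tail over the other tests, scalings, filters and limits tried, and 12 to 19 in the kidney, or 8 with the fold limit. The kidney rise count became 0 when only the groups compared were fitted, at an adjusted p of 0.01 and with the fold limit, and the tail rise count 1 at 0.01. With only the groups compared, 22 genes differed for HFc vs TFc, 26 for KFc vs TFc, 2 for KFs vs TFs and 1 for HFs vs KFs. At 0.01 these counts were 4, 4, 4 and 8, and 10 for the difference of heart and tail responses. With the fold limit they were 0, 2, 2 and 5, with 7 for HFc vs KFc, 10 for HFs vs TFs and 13 for the heart and tail responses. The share of all genes that differed at these settings is not given here, and the cause of these moves was not tested. Scaling by library size alone moved the median of all genes by -0.22 in HFs vs TFs, -0.205 in HFs vs KFs, -0.156 in HFc vs TFc and -0.112 in the heart and kidney responses, and no transplant fold change of the 29 genes changed sign with scaling.

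Leaving out 1 library at a time gave 2 to 3 rises and 23 to 25 falls in the heart, 1 to 2 and 13 to 20 in the kidney, and 1 to 3 and 17 to 19 in the tail, with 2 rises in the kidney without KFs replicate 2 and 1 in the tail without any 1 TFc library or TFs replicate 3. It gave 4 to 13 differences for HFc vs TFc (4 without HFc replicate 1, 5 without HFc or TFc replicate 2), 6 to 17 for KFc vs TFc (6 without TFc replicate 2), 14 to 19 for HFc vs KFc, 12 to 20 for HFs vs TFs, 5 to 8 for KFs vs TFs and 6 to 21 for HFs vs KFs. The responses differed for 14 to 23 genes between heart and tail, 1 to 7 between kidney and tail (7 without KFs replicate 3) and 21 to 26 between heart and kidney. The share of all genes called with a library left out is not given here. Directions turned only in the kidney, for genes whose change had not passed the test, over these ranges of the log2 fold change: *Hmgcs1* -0.29 to 0.27 (lowest without KFs replicate 2), *Ebp* -0.26 to 0.01 (0.006 without KFc replicate 2 and 0.003 without KFs replicate 3), *Dhcr7* -0.009 to 0.40 (lowest without KFs replicate 2), *Insig1* -0.56 to 0.33 (0.005 without KFc replicate 3, highest without KFs replicate 3), *Stard4* -0.22 to 0.33 (lowest without KFs replicate 2), and, lowest without KFs replicate 3, *Mylip* -0.33 to 0.30, *Abca1* -0.43 to 0.48 and *Abcg1* -0.91 to 1.37.

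The kidney and tail responses differed for 2 genes with DESeq2, with its size factors, with no filter and with a mean of 10 counts, and also with the replicate block. Over all genes tested, the replicate numbers did not pair the libraries. With the replicate block, 3 genes rose and 25 fell in the heart, 1 and 19 in the kidney and 3 and 19 in the tail. The interaction contrasts had no exact test.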
